A study of Mus musculus with 5 samples.

Results

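Notch signalling genes were followed in whole mouse cerebellum after loss of the transcription factor YY1 from Purkinje cells. The set is 10 genes out of the 55421 in the count table, chosen by symbol. It holds the receptors Notch1, Notch2 and Notch3 and the ligands Dll1, Dll3 and Jag1. It also holds the nuclear genes Hes1, Hes5, Hes6 and Hey1, grouped here as targets by their family. All 10 were found in the annotation and all 10 passed the filter on low counts. RNA came from cerebella at postnatal day 14. The 2 control libraries came from Pcp2 Cre/+; Yy1 fx/+ mice and the 3 Yy1 cKO libraries from littermates that were Pcp2 Cre/+; Yy1 fx/fx, so every animal carried the Pcp2-driven recombinase, which acts in Purkinje cells, and at least 1 floxed copy of Yy1. The animals were of mixed sex, and the labels do not give the sex, litter or pooling of each library, so the p-values rest on the spread of these libraries alone.

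In the Notch pathway a ligand on one cell binds a receptor on its neighbour, the receptor is cut by a surface protease and then by gamma-secretase, and the freed intracellular part enters the nucleus, where it joins the DNA-binding protein RBPJ and switches on repressors of the Hes and Hey families. In the young cerebellum the pathway is known for keeping progenitors undifferentiated, for the maturation of Bergmann glia, whose fibres lie among Purkinje cell dendrites, and for the growth and coating of blood vessels. A cell in which these repressors are high is held back from neuronal differentiation, and neighbouring cells can therefore take different fates.

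Total counts were 17424860 to 20305705 per library. Levels are given as CPM, counts scaled to library size, with TMM factors. Yy1 itself had 74.6 and 73.7 CPM in control tissue against 73.4, 81.7 and 75.8 CPM in the Yy1 cKO libraries, a log2 difference of 0.05 ± 0.065 (SE, adjusted p = 0.61). The Pcp2 promoter drives Cre in Purkinje cells alone among many cell types of the tissue, and the count is of the whole gene, so it checks the labels little. Yy1 cKO 3 stood apart from the other libraries on the second principal component, which held 17.0% of the variance. In bulk tissue, fewer cells of a type and less RNA per cell cannot be told apart. Differences are Yy1 cKO against control on the log2 scale, and calls are at an adjusted p of 0.05 in edgeR's quasi-likelihood test over all genes tested.

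Of the 10 genes, 5 were called: Hes1 rose, and Notch3, Dll3, Jag1 and Hes5 fell. Among all 20388 genes tested 23.4% were called, 10.7% higher and 12.6% lower. The median difference of the 10 genes was -0.42, against -0.00086 over all genes tested. The groups did not overlap in 7 of the 10 genes, a state found in 52.2% of all genes tested. A difference of at least 2-fold was called in 3 of the 10 (Hes1, Hes5 and Dll3) and in 5.44% of all genes tested. Each of the 5 calls was lost without at least 1 of the 5 libraries, as given beside each gene. With libraries scaled by their totals alone, 1 of the 10 was called higher and 6 lower, while over all genes 1432 were called higher and 3369 lower, against 2185 and 2577 with TMM. The direction of all 10 was the same under each of 14 alternatives. In 1 of these, the adjusted p of 0.01, it is fixed because the fit is the same. The replicate block in effect leaves out Yy1 cKO 3, as another of the 14 does.

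**Figure D1:**
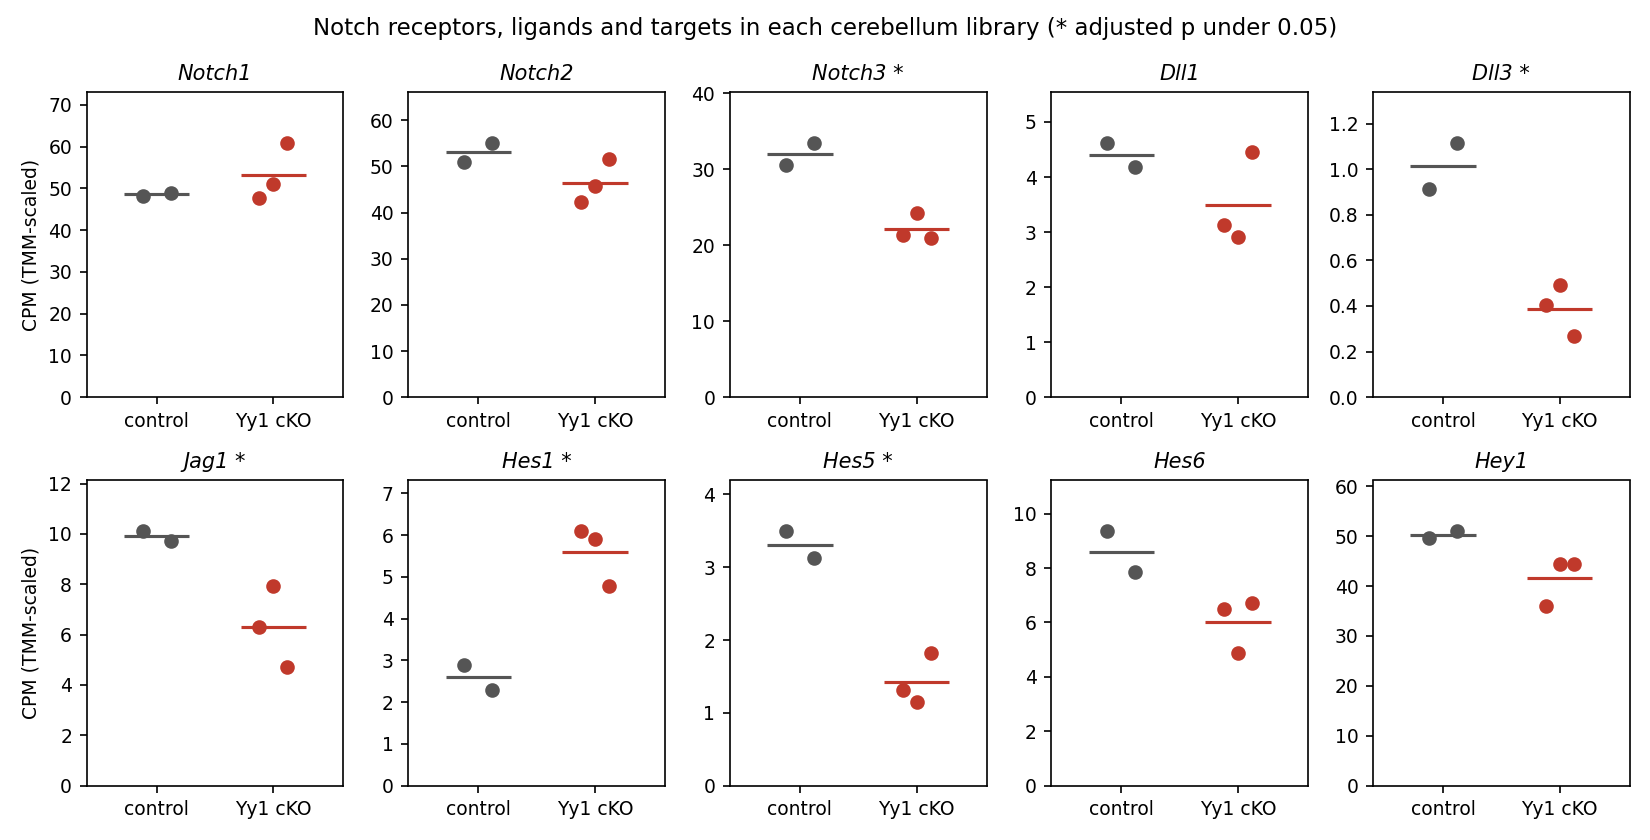
Level of each Notch gene in CPM (TMM-scaled, vertical axis from 0, scale differing between panels) in 2 control and 3 Yy1 cKO libraries; points are libraries, bars are group means and asterisks mark an adjusted p under 0.05. Hes1 is higher in every Yy1 cKO library than in either control, Notch3, Dll3, Jag1, Hes5, Hes6 and Hey1 are lower in every one, and Notch1, Notch2 and Dll1 overlap.

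The receptors differed in how they stood. Notch3 (ENSMUSG00000038146.8, chromosome 17, 32120820 to 32166852, minus strand, GRCm38), the receptor of arterial smooth muscle and pericytes, stood at 30.5 and 33.5 CPM in control tissue against 21.3, 24.2 and 20.9 CPM in Yy1 cKO. Every Yy1 cKO library lay below both controls. Notch3 fell to 69.3% of the control mean, a difference of -0.53 ± 0.098 (SE, adjusted p = 0.0040). Without control 2 the difference was -0.46 (adjusted p = 0.059). An antisense transcript, Gm17276, overlaps Notch3, with 20 and 23 counts in control tissue against 35, 37 and 30 in Yy1 cKO. Notch3 had 390 to 600 counts per library. As the strand setting of the counting is not given in the sources used here, reads of this pair may not be fully separated.

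Notch1 (chromosome 2, 26457903 to 26516663, minus strand), the receptor best known from neural progenitors and glia, stood at 48.2 and 48.9 CPM in control tissue against 47.7, 51.1 and 60.9 CPM in Yy1 cKO. The groups overlapped, and the highest value was that of Yy1 cKO 3. The difference was 0.13 ± 0.10 (adjusted p = 0.39), 0.02 without that library and 0.21 without Yy1 cKO 1. Notch2 (chromosome 3, 98013527 to 98150361, plus strand), known for keeping granule cell precursors in division, stood at 51.0 and 55.1 CPM in control tissue against 42.2, 45.7 and 51.5 CPM in Yy1 cKO. The lower control and the highest Yy1 cKO library, again Yy1 cKO 3, overlapped, and the difference was -0.19 ± 0.089 (adjusted p = 0.16). It was -0.27 without Yy1 cKO 3 (adjusted p = 0.0082), but -0.12 without Yy1 cKO 1 (adjusted p = 0.43) and -0.13 without control 2 (adjusted p = 0.56).

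Ratios of counts within a library do not depend on how libraries are scaled. For each count of Notch1 there were 0.633 and 0.685 of Notch3 in control tissue, against 0.448, 0.473 and 0.344 in Yy1 cKO. For Notch2 these were 1.06 and 1.13 against 0.886, 0.894 and 0.847. Both ratios were lower in each Yy1 cKO library than in either control; they were chosen after the values were seen and were not tested.

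Mural cell markers are given beside Notch3. Of 12 in the list 3 fell and 0 rose, a share near the 23.4% called among all genes, with a median difference of -0.30, and their summed level was 94.0% and 106.0% of the control mean in the controls and 66.8% to 80.0% in Yy1 cKO. Of the defining markers, Pdgfrb stood at 28.8 and 23.8 CPM (group means, difference -0.27 ± 0.12, adjusted p = 0.15) and Rgs5 fell from 148 to 93.4 CPM (-0.66 ± 0.17, adjusted p = 0.047). Neither was at 0 in any library. Rgs5 has the highest level in the list, and Vtn, Tagln, Anpep and Myh11 had differences of -0.06, -0.17, -0.13 and -0.19 and Des one of 0.40, none of them called. The part of these cells in the fall of Notch3 was not tested.

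All 3 ligands lay lower on average, and 2 of them passed the test. Jag1 (ENSMUSG00000027276.7, chromosome 2, 137081456 to 137116644, minus strand), a Serrate-type ligand that activates Notch on the neighbouring cell, stood at 10.1 and 9.70 CPM in control tissue against 6.29, 7.94 and 4.73 CPM in Yy1 cKO. All Yy1 cKO libraries lay below the controls, with Yy1 cKO 3 the lowest. Jag1 fell to 63.8% of the control mean (-0.65 ± 0.19, adjusted p = 0.039). The call was lost without control 1, control 2 or Yy1 cKO 1 (adjusted p = 0.20, 0.16 and 0.11), and in DESeq2 (-0.64, adjusted p = 0.058). Without Yy1 cKO 3 the difference was -0.48 (adjusted p = 0.026).

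Dll3 (ENSMUSG00000003436.11, chromosome 7, 28293553 to 28302238, minus strand) is a divergent Delta protein that stays largely inside the cell and does not activate Notch on neighbours. It was close to the limit of what these libraries measure, with 17 and 20 counts in control tissue against 8, 9 and 5 in Yy1 cKO. These are 0.913 and 1.12 CPM against 0.403, 0.493 and 0.268 CPM, with no overlap. Dll3 fell by 1.37 ± 0.42 on the log2 scale (adjusted p = 0.040), and the call was lost without any 1 of the 5 libraries (adjusted p = 0.053 to 0.25) and in DESeq2 (adjusted p = 0.17).

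Dll1 (chromosome 17, 15367354 to 15376872, minus strand), the Delta ligand of neural progenitors, stood at 4.62 and 4.18 CPM in control tissue against 3.12, 2.90 and 4.46 CPM in Yy1 cKO. The value of Yy1 cKO 3 lay between the controls, so the groups overlapped. The difference was -0.33 ± 0.22 (adjusted p = 0.33). It was -0.55 without Yy1 cKO 3 (adjusted p = 0.066) and -0.22 without Yy1 cKO 2 (adjusted p = 0.59).

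The targets went in opposite directions. Hes1 (ENSMUSG00000022528.8, chromosome 16, 30064384 to 30067796, plus strand), a basic helix-loop-helix repressor that answers to Notch and to other signals, had 54 and 41 counts in control tissue against 121, 108 and 89 in Yy1 cKO. These are 2.90 and 2.29 CPM against 6.09, 5.91 and 4.78 CPM. Every Yy1 cKO library lay above both controls. Hes1 rose to 216% of the control mean (1.11 ± 0.21, adjusted p = 0.0041). Without control 2 the difference was 0.95 (adjusted p = 0.056).

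Hes5 (ENSMUSG00000048001.7, chromosome 4, 154960923 to 154962371, plus strand), the repressor most tied to Notch in neural stem cells and radial glia, had 65 and 56 counts in control tissue against 26, 21 and 34 in Yy1 cKO. These are 3.49 and 3.12 CPM against 1.31, 1.15 and 1.83 CPM. Each Yy1 cKO library lay below both controls, with Yy1 cKO 3 the highest of its group. Hes5 fell to 43.2% of the control mean (-1.21 ± 0.26, adjusted p = 0.0085). Without control 1 the difference was -1.13 (adjusted p = 0.075). The non-coding transcript Gm20421 overlaps Hes5 on the other strand, with 6 and 10 counts in control tissue against 20, 17 and 13 in Yy1 cKO. The strand setting of the counting is not given in the sources used here, so reads of this pair may not be fully separated.

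Hes1 and Hes5 thus exchanged their order. Counts of Hes1 per count of Hes5 were 0.831 and 0.732 in control tissue against 4.65, 5.14 and 2.62 in Yy1 cKO. Hes5 had the more counts in both controls and Hes1 in all 3 Yy1 cKO libraries, and the group means per kilobase of exon, given further on, had the same order. The ratio was chosen after the values were seen and was not tested.

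Hes6 and Hey1 lay lower in each Yy1 cKO library without passing the test. Hes6 (chromosome 1, 91411483 to 91414038, minus strand), which opposes Hes1 and favours neuronal differentiation, stood at 9.35 and 7.86 CPM in control tissue against 6.49, 4.87 and 6.71 CPM in Yy1 cKO (-0.51 ± 0.17, adjusted p = 0.058). Hey1 (chromosome 3, 8663359 to 8667256, minus strand), a Hairy-related repressor of vessels and glia, stood at 49.7 and 51.0 CPM in control tissue against 36.0, 44.5 and 44.5 CPM in Yy1 cKO (-0.27 ± 0.096, adjusted p = 0.071). The groups of neither gene overlapped. Both were called lower with libraries scaled by their totals alone (-0.59, adjusted p = 0.037 for Hes6 and -0.35, adjusted p = 0.027 for Hey1) and without Yy1 cKO 3 (-0.59, adjusted p = 0.016 and -0.32, adjusted p = 0.015). Neither was called in DESeq2 (adjusted p = 0.13 and 0.15). Hes6 was at -0.38 without control 1 or without Yy1 cKO 2 (adjusted p = 0.34 and 0.15), and Hey1 was at -0.18 without Yy1 cKO 1 (adjusted p = 0.19).

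**Figure D2:**
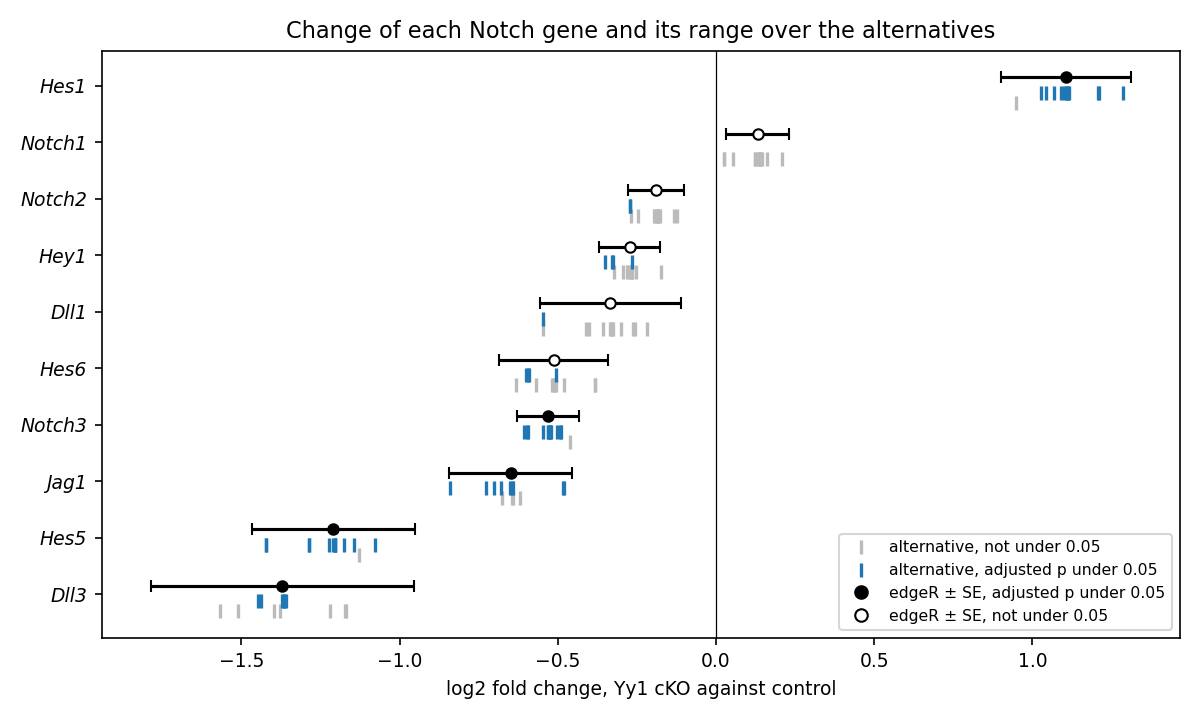
Difference of each Notch gene between Yy1 cKO and control on the log2 scale (horizontal axis), ordered by size; circles with bars are edgeR estimates ± SE, filled where the adjusted p is under 0.05, and ticks are the alternatives, blue where called. Hes1 lies at 1.11 on the far side from Hes5 at -1.21, and every gene keeps its side of 0 in all alternatives.

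Bergmann glia and astrocyte markers, whose cells are known for Hes5 and Hey1, moved both ways. Of 18 tested 6 rose and 2 fell, that is 44.4% called against 23.4% of all genes, with a median difference of 0.32. Their summed level was 98.2% and 101.8% of the control mean in the controls and 117.6% to 141.1% in Yy1 cKO. The defining markers Slc1a3, the glial glutamate transporter, and Slc1a2 rose (0.38 ± 0.071 and 0.49 ± 0.10, adjusted p = 0.0043 and 0.010). These had the highest control levels in the list, 853 and 1130 CPM, and so weigh most in the sum. Fabp7, a marker of young glia, fell from 126 to 33.5 CPM (-1.91 ± 0.34, adjusted p = 0.034), and Aqp4 fell by 0.53 ± 0.11 (adjusted p = 0.015). S100b, Sept4, Ptprz1 and Aldoc also rose, Aldoc from 563 to 1017 CPM. Gdf10, Hopx, Aldh1l1 and Gfap had differences of -0.31, -0.19, -0.37 and -0.89, none of them called. On the other side Glul, Ndrg2, Gja1, Apoe and Slc4a4 had differences of 0.80, 0.61, 0.44, 0.30 and 0.18, also not called, and Sox9 had one of -0.02. The list's median was 0.15 without Yy1 cKO 3. Markers of dividing granule cell precursors moved far more: 12 of 15 fell and 0 rose, that is 80% called. Their summed level was 92.7% and 107.3% in the controls and 25.3% to 28.2% in Yy1 cKO. Of its defining markers Atoh1 had 0, 1 and 0 counts in Yy1 cKO and Mki67 fell by 4.60 ± 0.29. Gli1, Pcna and Mcm2 of the same list had differences of 0.25, 0.04 and -0.40, none of them called. In the list of young granule neurons 11 of 12 fell, that is 91.7% called, with summed levels of 98.7% and 101.3% against 55.8% to 62.1%. The part of these cell types in the values of Hes1, Hes5 and Hes6 was not tested.

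RefSeq promoter sequences (GRCm38.p6) were on hand for 8 of the 10 genes, all but Hes1 and Hey1. They were searched for TGGGAA, the core of the RBPJ site, on both strands (TTCCCA on the other) in the 250 bases before the start. Among 32851 such windows of the genome's genes 21.6% held the core, and 5.42% held it as GTGGGAA, with the G that often flanks it. Hes5 was the 1 gene of the 8 with a match. It held a pair, both as GTGGGAA, whose cores begin at -226 on the minus strand and at -82 on the plus strand, where -1 is the base before the start. The sequences of Hes5 (chr4:154960673-154960922, plus strand), Nrarp (chr2:25180508-25180757, plus strand) and Hey2 (chr10:30842784-30843033, minus strand) are shown 5′ to 3′ with the RBPJ core in capitals, because these targets differ both in matches and in how they moved.
Hes5: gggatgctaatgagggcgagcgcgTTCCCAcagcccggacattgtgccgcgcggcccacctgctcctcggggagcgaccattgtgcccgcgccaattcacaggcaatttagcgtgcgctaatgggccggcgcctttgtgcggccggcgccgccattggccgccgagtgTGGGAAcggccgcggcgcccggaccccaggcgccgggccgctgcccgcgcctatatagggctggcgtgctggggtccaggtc
Nrarp: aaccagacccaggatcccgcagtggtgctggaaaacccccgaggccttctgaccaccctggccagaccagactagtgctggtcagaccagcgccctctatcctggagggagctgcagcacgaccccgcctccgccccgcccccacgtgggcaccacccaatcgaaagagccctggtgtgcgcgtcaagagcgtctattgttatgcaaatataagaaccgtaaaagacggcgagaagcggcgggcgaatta
Hey2: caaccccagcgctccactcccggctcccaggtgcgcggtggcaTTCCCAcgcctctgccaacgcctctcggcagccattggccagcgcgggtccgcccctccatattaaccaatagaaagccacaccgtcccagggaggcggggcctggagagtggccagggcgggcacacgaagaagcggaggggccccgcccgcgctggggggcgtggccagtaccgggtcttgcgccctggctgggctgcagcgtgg

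Hes5, with 2 matches, fell. Nrarp, with none in this window, fell further, and Hey2, with 1 at -207, was not called (0.18 ± 0.18, adjusted p = 0.53, and -0.04 without control 2). The YY1 motif CCATNTT, searched on both strands, was in 12.4% of windows. Among the 8 genes it matched Hes6, at -25 in the window of its inner start, and among the other targets with a sequence it matched Hey2 at -150. A match is a stretch of letters and no sign that a factor was bound.

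Per kilobase of exon, which allows genes to be compared, Hey1 was the most abundant of the 10. In the controls it stood at 15.4 ± 0.28 CPM per kilobase (SD, n = 2), followed by Notch2 at 4.92 ± 0.27, Hes6 at 4.76 ± 0.58, Notch3 at 3.95 ± 0.26, Notch1 at 3.41 ± 0.030, Hes5 at 2.43 ± 0.19, Jag1 at 1.70 ± 0.048, Hes1 at 1.27 ± 0.21, Dll1 at 1.04 ± 0.073 and Dll3 at 0.356 ± 0.050. Notch2 and Hes6 overlapped, and no other neighbours in this order did. All 3 receptors lay above all 3 ligands.

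In Yy1 cKO the order from the top was Hey1 at 12.8 ± 1.5 CPM per kilobase (SD, n = 3), Notch2 at 4.31 ± 0.44, Notch1 at 3.74 ± 0.48, Hes6 at 3.33 ± 0.56, Hes1 at 2.75 ± 0.35, Notch3 at 2.74 ± 0.22, Jag1 at 1.08 ± 0.28, Hes5 at 1.05 ± 0.26, Dll1 at 0.828 ± 0.20 and Dll3 at 0.136 ± 0.040. Hes1 moved from the eighth place to the fifth and Hes5 from the sixth to the eighth. Neighbours overlapped throughout this order except at Hey1 and Notch2, at Notch3 and Jag1, and at Dll1 and Dll3.

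**Figure D3:**
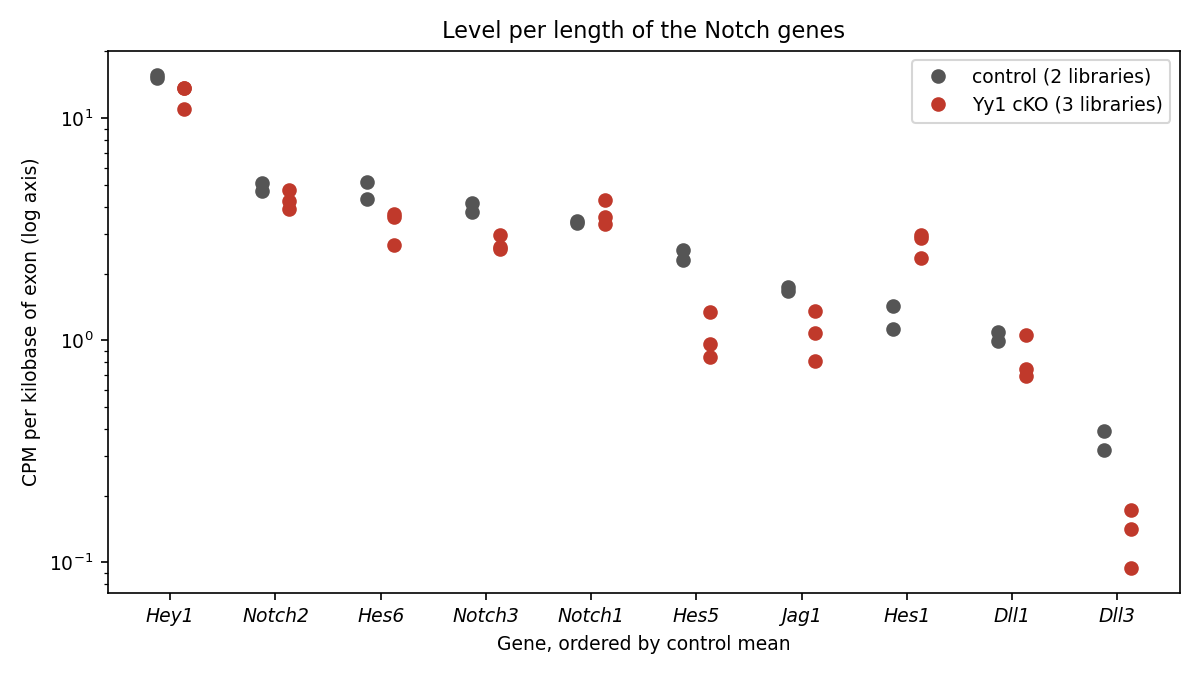
CPM per kilobase of exon (log axis) of the 10 Notch genes in each library, ordered by the control mean. Hey1 stands above all others in both groups, and Hes1 is the 1 gene whose Yy1 cKO libraries all lie above its controls.

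The other genes of the pathway were read from lists grouped by role. Of the 75 with a row of counts, 72 were tested, and 13 rose and 14 fell, that is 37.5% called against 23.4% of all genes, with a median difference of 0.0049. Of the 27 calls, 10 were kept without each of the 5 libraries in turn: Dll4, Jag2, Nrarp, Adam10, Hdac2, Tle2, Neurl1b, Neurl1a, Epn2 and Numbl. Without control 1 12 of the 27 were kept, and without control 2 13 were. With libraries scaled by their totals alone 8 rose and 19 fell.

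Other ligands included both vascular and neuronal ones. Of 10 tested 4 fell and 2 rose, that is 60% called against 23.4% of all genes. Dll4, the Delta ligand of sprouting endothelium, had 183 and 180 counts in control tissue against 74, 91 and 70 in Yy1 cKO. The groups stood far apart, and Dll4 fell by 1.26 ± 0.16 (adjusted p = 5.6e-04). Jag2, the second Serrate-type ligand, fell from 21.9 to 13.7 CPM (-0.67 ± 0.11, adjusted p = 0.0025). Egfl7, a secreted endothelial protein that binds Notch, fell by 0.64 ± 0.14 (adjusted p = 0.0094), and its difference was -0.66 without control 1 and -0.61 without control 2, with the call lost (adjusted p = 0.068 and 0.085). Dlk2, a non-canonical ligand named here after its value was seen, had 31 and 39 counts against 19, 12 and 15 (-1.24 ± 0.31, adjusted p = 0.017), and its adjusted p was 0.053, 0.16 and 0.057 without control 1, control 2 and Yy1 cKO 2.

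The 2 ligands that rose, Dner and Cntn6, are neuronal surface proteins. Cntn1, another contactin of the list named here after its value was seen, did not rise. It stood at 410 CPM in control tissue and 398 CPM in Yy1 cKO (-0.04 ± 0.062, adjusted p = 0.68). Dner, by which Purkinje cells signal to Bergmann glia, had 6610 and 6211 counts in control tissue against 8206, 7827 and 7503 in Yy1 cKO, and went from 351 to 415 CPM. It rose by 0.24 ± 0.059 (adjusted p = 0.016). Its adjusted p was 0.099 without control 1, 0.15 without control 2, 0.064 without Yy1 cKO 1 and 0.058 without Yy1 cKO 2. Cntn6, a contactin that can bind Notch, rose by 0.52 ± 0.094 (adjusted p = 0.0042, and 0.062 without control 1). Purkinje cell markers were called higher in 2 of 12 cases, Gad1 and Itpr1, and lower in 0. That is 16.7% called, below the 23.4% of all genes. Their summed levels were 98.4% and 101.6% in the controls and 115.5% to 132.8% in Yy1 cKO. The list's median difference was 0.09, and Itpr1 alone went from 1536 to 2586 CPM. Of the defining markers Calb1 stood at 670 ± 84.4 CPM (SD, n = 2) and 663 ± 61.4 CPM (SD, n = 3), and Pcp2 at 203 and 234 CPM. Their part in the rise of Dner was not tested.

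Of 4 other targets tested 2 fell and 0 rose, that is 50% called against 23.4% of all genes. Nrarp, a feedback inhibitor that Notch itself induces, had 234 and 188 counts in control tissue against 90, 67 and 63 in Yy1 cKO. It fell by 1.57 ± 0.17 (adjusted p = 1.6e-04), from 11.5 to 3.86 CPM. Heyl, a Hairy-related target found in mural cells and in young neurons, had 142 and 111 counts against 67, 69 and 52 and fell by 1.06 ± 0.19 (adjusted p = 0.0033, and 0.052 without control 1). Hes3 had 338 and 488 counts in control tissue against 479, 501 and 691 in Yy1 cKO, which overlap (0.38 ± 0.26, adjusted p = 0.36). Its difference was 0.12 without control 1, 0.70 without control 2 and 0.18 without Yy1 cKO 3, none of them called. Hes2 had no count in any library, and Hes7 had 3 to 8. The receptor Notch4, of endothelium, stood at 10.6 and 9.76 CPM against 8.71, 8.49 and 8.86 CPM (-0.23 ± 0.12, adjusted p = 0.20).

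Endothelial markers stood lower beside Dll4, Jag2, Egfl7 and Nrarp. Of 13 tested 5 fell and 1 rose, that is 46.2% called against 23.4% of all genes, with a median of -0.39. Their summed level was 95.8% and 104.2% of the control mean in the controls and 80.7% to 81.7% in Yy1 cKO. Cldn5, of tight junctions, fell by 1.01 ± 0.094 and Kdr, the main receptor for vascular growth factor, by 1.00 ± 0.15. The marker that rose was Flt1, another receptor for vascular growth factor (0.24 ± 0.075, adjusted p = 0.049), while Ly6c1 and Abcb1a had differences of 0.47 and 0.40 (adjusted p = 0.052 and 0.069) and Erg one of -0.01. Of the defining markers Pecam1 fell by 0.41 ± 0.11 (adjusted p = 0.021), and Cdh5 stood at 15.2 and 12.1 CPM (-0.33 ± 0.15, adjusted p = 0.15). The median was -0.27 without Yy1 cKO 3. The part of endothelium in the falls of these ligands and targets was not tested.

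Of 6 genes that act on the ligand-sending side 3 rose and 1 fell, that is 66.7% called against 23.4% of all genes. Neurl1b, a Neuralized ubiquitin ligase that sends Delta ligands into endocytosis, had 436 and 394 counts in control tissue against 92, 112 and 78 in Yy1 cKO. It fell by 2.19 ± 0.15 (adjusted p = 1.4e-05). Its relative Neurl1a had 1182 and 1123 counts in control tissue against 2372, 2247 and 1987 in Yy1 cKO and rose by 0.88 ± 0.073 (adjusted p = 3.7e-05). Counts of Neurl1a per count of Neurl1b were thus 2.71 and 2.85 in control tissue against 25.8, 20.1 and 25.5 in Yy1 cKO, a ratio chosen after its values were seen. Epn2, an epsin of clathrin-coated pits, rose by 0.34 ± 0.056 (adjusted p = 0.0022), and the ubiquitin ligase Mib2 by 0.52 ± 0.090 (adjusted p = 0.0030, and 0.055 without control 1).

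Of 10 genes of receptor cleavage 1 fell and 1 rose, a share near the 23.4% called among all genes. Adam10, the protease that makes the first cut after ligand binding, had 3609 and 3605 counts in control tissue against 2728, 2653 and 2522 in Yy1 cKO, and fell by 0.50 ± 0.056 (adjusted p = 2.1e-04). Psen2, a catalytic subunit of gamma-secretase, rose by 0.42 ± 0.10 (adjusted p = 0.014), and its difference was 0.46 without control 1 and 0.39 without control 2, with the call lost (adjusted p = 0.089 and 0.11). The gamma-secretase subunits Aph1b (-0.25 ± 0.12) and Ncstn (-0.12 ± 0.075) did not pass (adjusted p = 0.18 and 0.30). Of 5 genes that place sugars on the receptors Lfng rose (0.43 ± 0.13, adjusted p = 0.037), but its adjusted p was 0.16, 0.20 and 0.11 without control 1, control 2 and Yy1 cKO 2. The fringe genes Mfng (-0.76 ± 0.29) and Rfng (0.08 ± 0.066) and the glucosyltransferase Poglut1 (0.04 ± 0.078) did not pass (adjusted p = 0.092, 0.45 and 0.74). The share called among these 5 genes, 20%, was also near that of all genes.

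In the nuclear complex 3 of 9 rose and 1 fell, that is 44.4% called against 23.4% of all genes. Rbpj, the DNA-binding partner of all Notch receptors, had 1002 and 942 counts in control tissue against 814, 758 and 820 in Yy1 cKO and fell by 0.34 ± 0.066 (adjusted p = 0.0057, and 0.069 and 0.060 without control 1 or control 2). The coactivator Maml2 rose by 0.38 ± 0.076 (adjusted p = 0.0060, and 0.087 without control 2). The acetyltransferases Kat2b and Ep300 rose by 0.29 ± 0.061 and 0.20 ± 0.055 (adjusted p = 0.0075 and 0.026). Both lost the call without control 1 (adjusted p = 0.11 and 0.12) or control 2 (adjusted p = 0.054 and 0.22), and Ep300 also without Yy1 cKO 1 (adjusted p = 0.062).

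Of 14 corepressors 2 fell and 2 rose, that is 28.6% called, near the 23.4% of all genes. The deacetylase Hdac2 fell from 97.5 to 67.2 CPM (-0.54 ± 0.056, adjusted p = 1.6e-04) and Tle2, a Groucho corepressor that Hes proteins recruit, rose from 37.3 to 53.2 CPM (0.51 ± 0.080, adjusted p = 0.0015). Ctbp2 fell by 0.26 ± 0.066 and Bend6, a neuronal corepressor that binds RBPJ, rose by 0.37 ± 0.11 (adjusted p = 0.019 and 0.041). Ctbp2 lost the call without control 1, control 2 or Yy1 cKO 1 (adjusted p = 0.11, 0.14 and 0.065), and Bend6 did so without either control (adjusted p = 0.14 and 0.21) and without Yy1 cKO 1 (0.094) or its replicate 2 (0.11).

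Of 13 genes of receptor trafficking and turnover 3 fell and 1 rose, that is 30.8% called against 23.4% of all genes. Numbl, an adaptor that restrains Notch in dividing neural cells, had 2474 and 2373 counts in control tissue against 1917, 1764 and 1859 in Yy1 cKO and fell by 0.44 ± 0.054 (adjusted p = 3.6e-04). Dtx4, a Deltex ubiquitin ligase, fell by 0.47 ± 0.095 (adjusted p = 0.0062, and 0.10 without control 2). Chac1, which blocks the maturation of Notch1, fell by 0.73 ± 0.22 (adjusted p = 0.036) and Fbxw7, which marks the freed intracellular part for destruction, rose by 0.23 ± 0.068 (adjusted p = 0.037). Both of these lost the call without control 1 (adjusted p = 0.12 and 0.26), control 2 (0.19 and 0.14), Yy1 cKO 1 (0.10 and 0.13) or Yy1 cKO 2 (0.057 and 0.10).

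**Figure D4:**
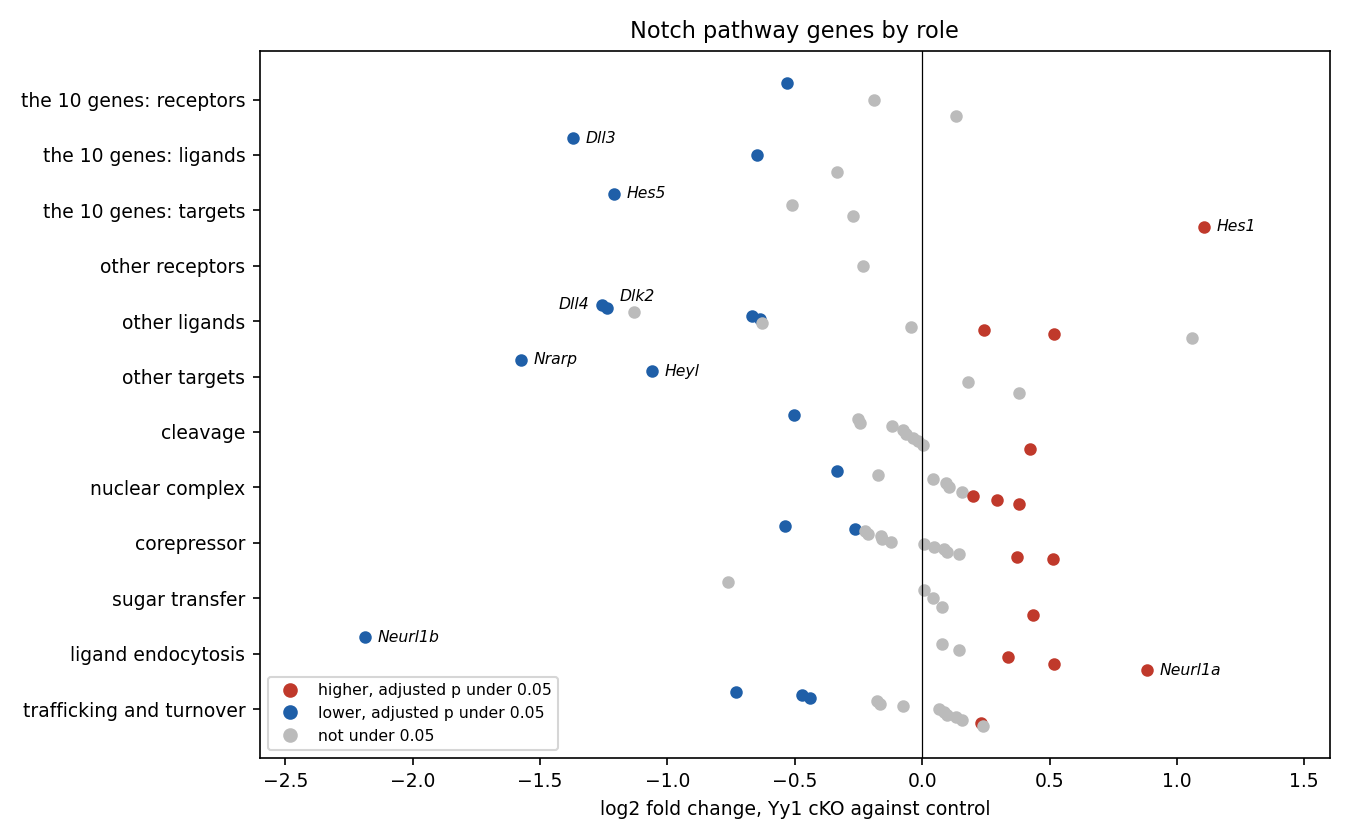
Difference between Yy1 cKO and control (log2, horizontal axis) of each tested Notch pathway gene, grouped by role; red and blue points passed an adjusted p of 0.05, grey points did not. Neurl1b and Nrarp lie furthest to the left at -2.19 and -1.57, and Hes1 and Neurl1a furthest to the right among the called genes, at 1.11 and 0.88.

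Genes whose pattern over the 5 libraries was most like that of a called Notch gene were found by the root mean square difference of log2 CPM, each gene centred on its own mean. Nearest to Notch3 were Arf4 (0.024), the gene model CAAA01118383.1 (0.034) and Calr (0.039). Nearest to Jag1 were Ltbp1 (0.019), Gins2 (0.051) and Hhipl1 (0.055), and nearest to Dll3 were Rnaset2b (0.068), Cish (0.076) and Catsperg1 (0.10). For Hes5 they were Rps4x-ps (0.066), Prr7 (0.072) and Tagap (0.074), and for Hes1 they included Pitpnm3 (0.055) and Snhg11 (0.076). None of these genes is in the Notch lists. Rps4x-ps is a pseudogene and Rnaset2b has a near-identical copy, so their counts are uncertain. A gene near in this measure differs between the groups by the choice alone.

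**Figure D5:**
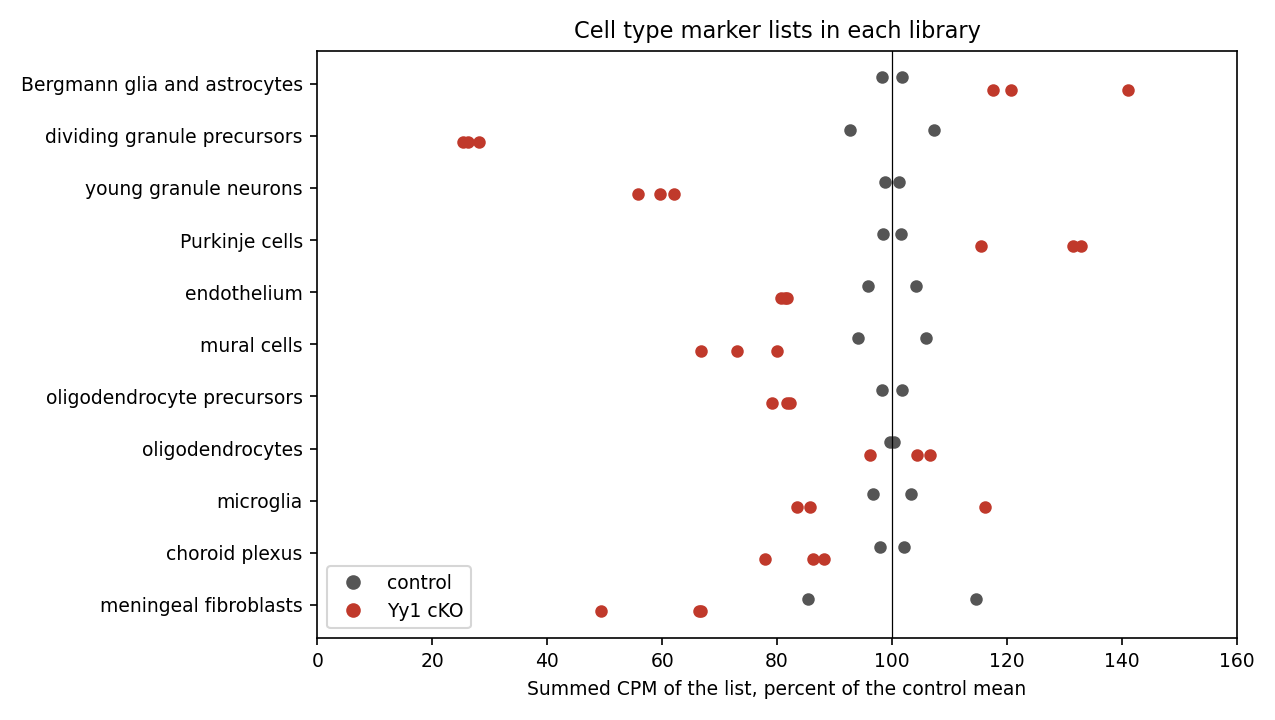
Summed CPM of each cell type marker list in each library, as a percent of the control mean of that list (horizontal axis); grey points are controls and red points Yy1 cKO. In Yy1 cKO the list of dividing precursors lies at 25.3% to 28.2%, meningeal fibroblasts at 49.4% to 66.8% and young granule neurons at 55.8% to 62.1%, endothelium and mural cells lie below the controls, and Bergmann glia and astrocytes lie above them at 117.6% to 141.1%.

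The remaining lists give the rest of the tissue beside these values. Of 12 markers of oligodendrocyte precursors 7 fell and 0 rose, that is 58.3% called against 23.4% of all genes. Their summed levels were 79.1% to 82.2% of the control mean in Yy1 cKO. Meningeal fibroblast markers fell in 5 of 10 cases, with summed levels of 49.4% to 66.8% in Yy1 cKO and 85.4% and 114.6% in the controls. Col1a1, Col1a2 and Col3a1 had the highest control levels in the list (81.4, 81.1 and 60.3 CPM) and so weigh most in the sum. Ogn, Slc6a13 and Foxc1 had differences of 0.41, 0.20 and -0.12, none of them called. Markers of oligodendrocytes (3 higher and 1 lower of 10) and microglia (0 higher and 1 lower of 9) had summed levels that spanned 100%, at 96.1% to 106.6% and 83.4% to 116.2%. The shares called were 40% and 11.1%. Of the choroid plexus list 1 of 6 tested rose and 2 fell, that is 50% called, with summed levels of 77.9% to 88.1% in Yy1 cKO. Its defining markers Ttr and Folr1 had 4 to 18 and 0 to 4 counts per library, and Ttr was the marker that rose (1.54 ± 0.48, adjusted p = 0.046). Otx2 and Enpp2 fell, by 0.84 ± 0.11 and 0.23 ± 0.060 (adjusted p = 4.7e-04 and 0.020). Enpp2 had the highest level in the list, 144 CPM in control tissue and 122 CPM in Yy1 cKO, so the sum follows it most.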

How the data were processed

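The authors deposited raw read counts per gene for 5 libraries, as whole numbers. They also deposited a normalized signal, which equals the raw count divided by 1 constant per library (0.969 to 1.07) and was used only for that check. Per the labels, total RNA was depleted of ribosomal RNA and libraries were strand-specific, with paired-end reads of 150 bp. Per the submitters' processing notes, FastQC 0.11.8, Trimmomatic 0.39, STAR 2.7.1a, featureCounts, DESeq2 1.26.0 and GRCm38 were used; the strand setting is not given in the sources used here. Symbols, positions and exon lengths came from GENCODE M21 (54673 identifiers matched with version, 567 without, 181 not).

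Counts were tested with edgeR 4.0.16 (quasi-likelihood, robust, TMM, filterByExpr, group only) in R 4.3.3, with Benjamini-Hochberg adjustment over 20388 genes. SE is the log2 fold change divided by the root of F. Alternatives used DESeq2 1.42.0 and limma 3.58.1. Simulated counts with 200 changed genes served to check it. Libraries of a group differed beyond sampling noise (chi-square over genes, 3.51 to 16.7 per gene), so each was counted once. The value was 7.72 between the controls and 3.51 between Yy1 cKO 1 and 2. It was 16.7 and 16.6 between these and Yy1 cKO 3. Whether Yy1 cKO 1 and 2 share a litter or pool is not given. Members, lists and tests were chosen with earlier results of these data known. Cspg4 and Pdgfra stand in more than 1 marker list. Named were all 10 genes, Dner, Notch4 and Rbpj, up to 4 genes of each other list by p, the first 2 markers and up to 3 by p of marker lists, and, for each called gene, the 3 nearest profiles (mean CPM of at least 1, pseudocount 0.1), of which 1 is not reported here; Fabp7, Cldn5, Kdr and other markers outside this were chosen after their values were seen.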

Additional observations from a re-analysis of the deposited data

How the results depend on the processing

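Among the 10 genes 113 of the comparisons with an alternative kept the call or its absence, 16 lost a call, 11 gained one and none turned direction. Those at an adjusted p of 0.01 use the main fit and could not turn. Those with the replicate block largely repeat the fit without Yy1 cKO 3, as given below. The number of the 10 called lower, 4, became 2 in DESeq2 and at an adjusted p of 0.01, and 1 to 6 when each library was left out; the number called higher, 1, became 0 to 1 when each library was left out. For the other pathway genes, the 13 called higher became 8 with library totals only, 7 at an adjusted p of 0.01 and 4 to 17 when each library was left out, and the 14 called lower became 8 to 17 when each was left out. Over all genes, the 2185 called higher became 1432 with library totals only, 1095 at 0.01 and 887 to 2990 when each library was left out, and the 2577 called lower became 3369 with library totals only, 1453 at 0.01 and 1267 to 3127 when each was left out. Of the counts with a library left out, the highest came without Yy1 cKO 3. The stricter threshold calls fewer genes by construction; the cause of the other shifts was not tested. Where 1 control remained, it was taken to vary as the other group does.

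With the replicate number as a block, 7 of the 10 genes were called lower, with Dll3 losing its call (adjusted p = 0.068) and Notch2, Dll1, Hes6 and Hey1 gaining one, and 3486 genes were called higher over all. Replicate 3 exists only in Yy1 cKO, so its block absorbs Yy1 cKO 3 and the differences rest on the other libraries. They were close to those without Yy1 cKO 3 (Notch2 -0.27 in both, Notch1 0.024 and 0.025). The block is therefore no separate check. The labels tie no numbers to litters. Deviations of same-numbered libraries from their group means correlated at 0.039 and 0.032. With 2 controls the deviation of 1 is that of the other with its sign turned. The deviations in Yy1 cKO mostly set Yy1 cKO 3 against the others. These correlations therefore cannot show whether the numbers pair the samples. By the longest transcript in place of the exon union, the control rank per kilobase went from 5 to 3 for Notch1, 2 to 4 for Notch2, 4 to 5 for Notch3, 7 to 8 for Jag1, 8 to 7 for Hes1 and 3 to 2 for Hes6. Dll3 had 5 to 20 counts per library, which limits its precision.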
